A study of Homo sapiens with 54 samples.

Results

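The 37 genes described here encode the enzymes, transporters and regulators that carry glucose to pyruvate and on to lactate, the mitochondria or glycogen. They were chosen by name, and each was found under its own name among the 60676 genes of every library, so all 37 are accounted for. The libraries are bulk RNA-seq of medium spiny neuron-like cells differentiated from H9, an established human embryonic stem cell line. A total of 53 libraries in 18 groups was analysed, with 3 libraries per group except the fifth-day group of the time course, which had 2.

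The groups belong to 4 experiments with their own controls. In the first, cells received 1 mM dopamine as 1 acute dose at day 45 in vitro or as chronic daily doses ending at day 50, with RNA extracted either 1 h or 24 h later, and the controls received PBS. The second was built in the same way with 1 µM dopamine. In the time course, cells received daily 1 mM dopamine for 2, 3, 4 or 5 days, RNA was taken 1 h after the last dose with all groups extracted at day 50, and the control was the ascorbic acid vehicle. In the last, cells received 50 µM SKF82958, an agonist of D1-like dopamine receptors, or 50 µM quinpirole, an agonist of D2-like receptors, and the control was water. The study dissolved dopamine in 100 µM ascorbic acid, while the controls of the first and second experiments are labelled PBS, so dopamine and its vehicle cannot be told apart there. The day on which the PBS controls were taken is not given in the sources used here, so in the chronic groups the day cannot be told apart from the dosing either.

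Glucose enters a cell through transporters of the SLC2A family and is trapped by hexokinase. The steps down to pyruvate are shared by nearly every cell, but many of them are run by isoenzymes whose genes are set separately. Pyruvate is then either reduced to lactate by lactate dehydrogenase or carried into the mitochondrion, where the pyruvate dehydrogenase complex turns it into acetyl-CoA. The pyruvate dehydrogenase kinases (PDK) switch that complex off and the phosphatase PDP1 switches it on. Many genes of this set, among them HK2, PGK1, LDHA and PDK1, are textbook targets of the hypoxia-inducible factors (HIF), transcription factors that are degraded when oxygen is plentiful.

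Total exon reads ranged from 5755919 to 27702963 per library, apart from quinpirole replicate 1, which had 137051 exon reads with 96.7% of its gene reads in introns. All 9 pan-neuronal markers were detected in the other 52 libraries, from RBFOX3 at 7.31 to 17.9 up to STMN2 at 667 to 1669 in TPM, a transcript abundance scaled by exon length and library size. Of the 15 striatal markers, BCL11B was highest (25.8 to 98.6 TPM) and PPP1R1B read 2.66 to 44.7 TPM. Among D1 neuron markers TAC1 read 2.25 to 19.8 TPM, while DRD1 and PDYN were under 1 TPM in 12 and 48 of those libraries. Progenitor markers (SOX2 227 to 1175 TPM) and the choroid plexus marker TTR (201 to 4442 TPM) were also high, so the cultures were mixed. In bulk samples, fewer cells of a type and less RNA per cell cannot be told apart. Replicate 1 of the acute 24 h group at 1 mM stood apart, with 0.826% of exon reads on mitochondrial genes against 2.49% to 3.28% in the other libraries of its experiment. At 1 µM, 4 libraries had over 10% of exon reads on mitochondrial genes, among them replicate 2 of the PBS, acute 1 h and chronic 1 h groups. Results that these libraries move are given with and without them.

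Every one of the 37 genes was expressed in the controls. Over the 12 control libraries, GAPDH was the most abundant at 2692 ± 751 TPM (SD, n = 12), and PDK4 the least at 2.51 ± 0.532 TPM. The next in order were LDHB (610 ± 154 TPM), ENO1 (544 ± 262 TPM), PKM (506 ± 81.9 TPM), ALDOA (502 ± 203 TPM) and TPI1 (494 ± 190 TPM), and these 5 neighbours did not differ beyond their spread. In all, 11 genes had a control mean at or above 100 TPM and 35 at or above 10 TPM, the exceptions being PDK4 and the glycogen branching enzyme GBE1 (6.90 ± 2.69 TPM). Among isoenzymes, lactate dehydrogenase transcripts were mostly LDHB, the form that is known to predominate in brain, with LDHA at 49.8 ± 19.3 TPM. Levels of ALDOA, LDHB, PDK2 and MPC2 are less certain than the rest, since in the 52 libraries the share of their exon reads that mapped to 1 place was 10.2% to 18.9%, 21.8% to 38.3%, 58.1% to 77.7% and 78.9% to 96.0%.

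The controls of the 4 experiments did not start from the same level. HK2, the inducible hexokinase, read 221, 131 and 88.5 TPM in the 3 PBS libraries of the 1 mM experiment. It read 21.4 to 35.0 TPM in the PBS libraries of the 1 µM experiment, 17.9 to 26.2 TPM in the ascorbic acid controls and 9.35 to 14.9 TPM in the water controls. PDK1 followed the same order of ranges at the top, with 25.2 to 42.9, 10.7 to 13.3, 4.25 to 7.45 and 4.72 to 6.84 TPM. SLC2A1, the basal glucose transporter also known as GLUT1, read 97.3 to 284 TPM in the PBS libraries of the 1 mM experiment and 27.0 to 56.4 TPM in the 9 other controls. The PBS libraries of the 1 mM experiment thus lay above every other control library for these 3 genes. Experiment and control cannot be told apart in this.

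**Figure D1:**
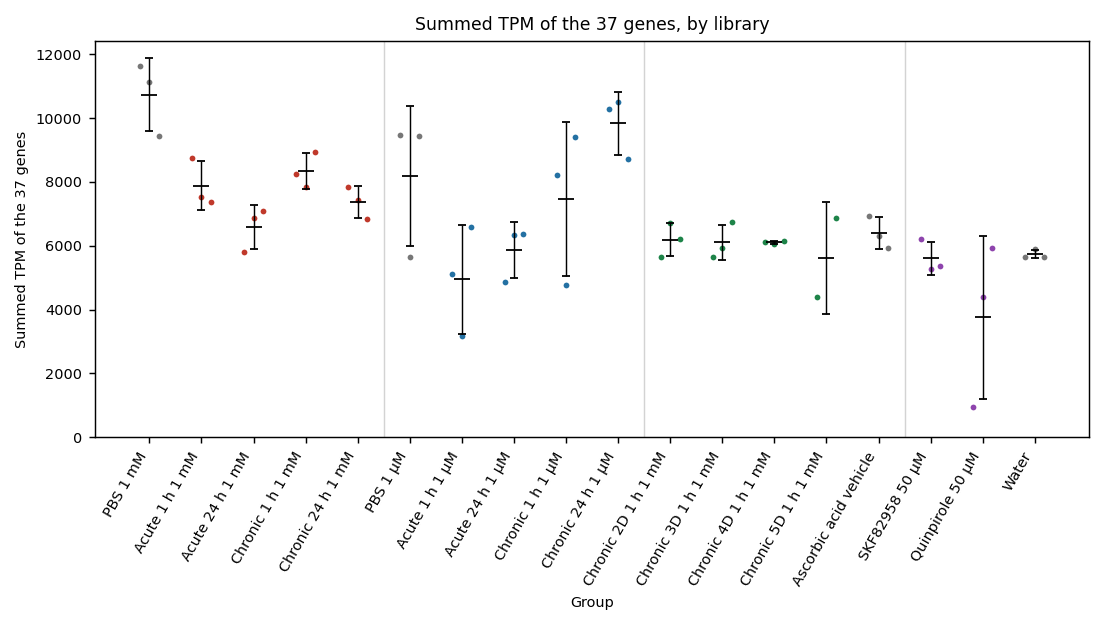
Summed TPM of the 37 genes (vertical axis) in every library, by group (horizontal axis), with each point a library, the horizontal dash its group mean and the whisker 1 SD (grey controls, red 1 mM, blue 1 µM, green time course, purple agonists). The 3 PBS libraries of the 1 mM experiment, at 9455 to 11638, lie above all 12 dopamine libraries beside them, and the lowest point of all, 936, is quinpirole replicate 1, which widens the whisker of its group.

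The summed TPM of the set was lower in each 1 mM dopamine group than in its PBS libraries, and overlapped the ascorbic acid vehicle in the time course. Its summed TPM was 11638, 11129 and 9455 in the PBS libraries, and 8767, 7513 and 7375 in the libraries 1 h after the acute dose. It was 5809 to 7081 at 24 h after the acute dose, 7828 to 8952 at 1 h after chronic dosing and 6852 to 7846 at 24 h after chronic dosing, so none of the 4 dopamine groups overlapped PBS. At 1 µM the sums were 5646 to 9474 in PBS, 3159 to 6573 in acute 1 h, 4854 to 6380 in acute 24 h, 4754 to 9407 in chronic 1 h and 8710 to 10518 in chronic 24 h, with overlap of each group with PBS. In the time course the vehicle sums were 5926 to 6934 and the sums after 2, 3, 4 and 5 days were 5660 to 6719, 5649 to 6731, 6057 to 6148 and 4378 to 6866. In the 1 µM experiment the lowest sum of the PBS, acute 1 h and chronic 1 h groups was in each case the library with 12.4% to 12.8% of exon reads on mitochondrial genes.

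One hour after an acute 1 mM dose, 19 of the 37 genes fell and 1 rose. With all libraries fitted, the falls included steps from glucose entry to lactate, without GAPDH or PKM, and the genes that fell most were PDK1, ALDOC, HK2 and SLC2A1. The gene that rose was PDP1. Over all 17804 genes tested in this comparison by edgeR's quasi-likelihood test on exon reads, with Benjamini-Hochberg adjustment and a call at an adjusted p under 0.05, 7.94% were called lower and 8.04% higher. The median log2 fold change was -0.57 over the 37 genes and 0.01 over all genes. Astrocyte markers moved with this group, their summed TPM being 253 to 287 in PBS and 410 to 469 in the treated libraries. Neuron markers went from 3926 to 4548 to 3555 to 3909, striatal markers from 155 to 176 to 140 to 144, and the intron share of gene reads went from 19.5% to 21.8% in PBS to 12.3% to 13.2%. Their part in the result was not tested. With intron reads counted too, 16 genes were lower and 9 higher, with 47.2% of all genes called in either direction and medians of -0.27 over the 37 genes and -0.08 over all genes. Without the acute 24 h library that stood apart, 21 were lower and 4 higher (PDP1, PFKFB2, MPC1 and LDHB), with 39.8% of all genes called in either direction. The genes newly called lower in that fit were GAPDH (-0.27, edgeR adjusted p = 0.0075) and SLC16A1 (-0.22, edgeR adjusted p = 0.0311). Without acute 1 h replicate 2 or replicate 3, 10 were lower and 1 higher, with 8.03% and 6.74% of all genes called.

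At the entry of glucose, all 4 genes fell after the acute 1 mM dose. SLC2A1 read 284, 201 and 97.3 TPM in PBS and 85.9, 45.9 and 47.5 TPM at 1 h. The ranges did not overlap, and the log2 fold change was -1.63 ± 0.33 (SE; edgeR adjusted p = 0.00609). SLC2A3, the high-affinity neuronal transporter GLUT3, fell by 1.38 ± 0.27 on the log2 scale (edgeR adjusted p = 0.00497). HK2 read 221, 131 and 88.5 TPM in PBS against 56.4, 34.3 and 32.8 TPM, a log2 fold change of -1.77 ± 0.33 (edgeR adjusted p = 0.00415). HK1, the constitutive brain hexokinase, moved less, from 169 to 195 TPM in PBS to 110 to 129 TPM (-0.58 ± 0.09, edgeR adjusted p = 0.00126). The hexokinase transcripts therefore shifted in make-up, and HK1 was 56.9% ± 9.45 (SD, n = 3) of them in PBS and 74.4% ± 4.13 (n = 3) at 1 h.

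In the steps from glucose 6-phosphate to the trioses, GPI (-0.81), PFKP (-0.90), ALDOA (-0.99), ALDOC (-1.88) and TPI1 (-0.54, all log2 fold changes) were called lower, while the phosphofructokinases PFKL (-0.11) and PFKM (-0.03) were not. ALDOC, the brain-type aldolase, read 115, 139 and 95.7 TPM in PBS and 52.4, 22.5 and 15.9 TPM at 1 h, without overlap (-1.88 ± 0.45, edgeR adjusted p = 0.0142). Among the bifunctional PFKFB enzymes, which set the level of the main activator of phosphofructokinase, PFKFB3 (0.502 times the PBS level, edgeR adjusted p = 0.0344) and PFKFB4 (-1.07 ± 0.31, edgeR adjusted p = 0.0334) fell and PFKFB2 was not called (0.23). In the steps from glyceraldehyde 3-phosphate to pyruvate, PGK1 (-0.97), PGAM1 (-0.58), ENO1 (-0.74) and ENO2 (-0.73) fell. GAPDH (-0.25), PKM (0.21) and BPGM (0.24) were not called. PGK1, the first ATP-making enzyme of the route, read 424, 393 and 308 TPM in PBS and 237, 161 and 151 TPM at 1 h.

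At the pyruvate branch the kinases PDK1 and PDK3 fell and the phosphatase PDP1 rose. PDK1 read 42.9, 34.3 and 25.2 TPM in PBS and 10.2, 6.37 and 4.77 TPM 1 h after 1 mM dopamine, the largest fall of the set (-2.19 ± 0.31, edgeR adjusted p = 0.000883). PDK3 fell less (-0.57 ± 0.11, edgeR adjusted p = 0.00558), and PDK2 (0.23) and PDK4 (0.10) were not called. PDP1 read 61.5, 65.2 and 64.6 TPM in PBS and 155, 120 and 129 TPM at 1 h, so every treated library lay above every control (1.14 ± 0.22, edgeR adjusted p = 0.00436). LDHA went from 63.3 to 74.4 TPM to 36.3 to 48.1 TPM (-0.60 ± 0.16, edgeR adjusted p = 0.0245). LDHB, at 784 to 818 TPM in PBS and 879 to 927 TPM at 1 h, was not called (0.24, edgeR adjusted p = 0.146). The complex subunits PDHA1 (-0.03) and PDHB (0.20), the mitochondrial pyruvate carriers MPC1 (0.27) and MPC2 (0.11) and the lactate transporter SLC16A1 (-0.21) were not called either.

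**Figure D2:**
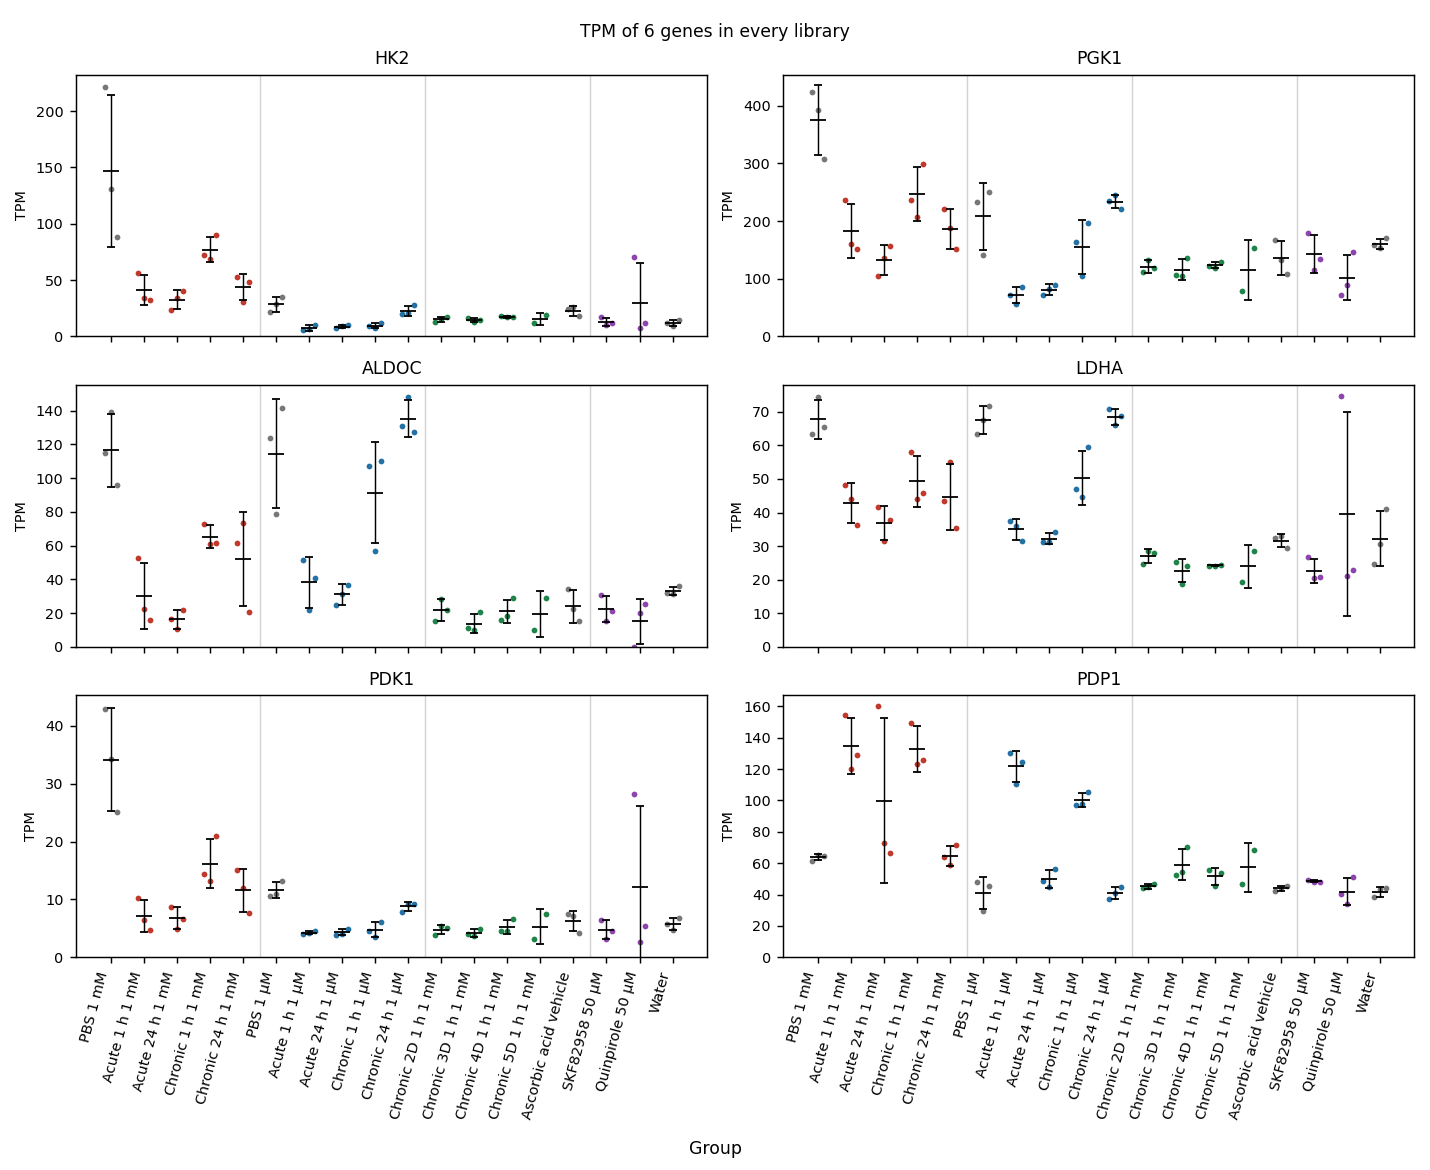
TPM (vertical axis of each panel) of HK2, PGK1, ALDOC, LDHA, PDK1 and PDP1 in every library by group (horizontal axis), with each point a library, the horizontal dash the group mean and the whisker 1 SD (grey controls, red 1 mM, blue 1 µM, green time course, purple agonists). PDP1 stands at 97.4 to 155 TPM in the 12 dopamine libraries taken 1 h after acute or chronic dosing in the first and second experiments, and quinpirole replicate 1 widens the whisker of its group.

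The same time point at 1 µM, with its own PBS controls, gave 13 genes lower and 1 higher. Over all 16541 genes tested, 2.52% were called lower and 3.25% higher, and the median log2 fold change was -0.64 over the 37 genes and 0.02 over all genes. HK2 read 21.4, 29.1 and 35.0 TPM in PBS and 6.02, 6.32 and 10.3 TPM at 1 h, without overlap (-1.94 ± 0.25, edgeR adjusted p = 0.000439). PGK1 went from 233, 142 and 250 TPM to 72.5, 57.1 and 85.0 TPM (-1.51 ± 0.13, edgeR adjusted p = 2.02e-05), and every treated library lay below every control. ENO1 (-1.49), ALDOC (-1.58), ALDOA (-1.57) and PDK1 (-1.44) fell by similar amounts on the log2 scale. PDP1 rose from 47.9, 29.6 and 45.7 TPM to 130, 110 and 125 TPM, a log2 fold change of 1.61 ± 0.15 (edgeR adjusted p = 2.87e-05). Choroid plexus markers moved with this group, with a summed TPM of 2105 to 2665 in PBS and 1146 to 1519 at 1 h, and their part in the result was not tested. Without the 4 libraries over 10% mitochondrial reads, a check chosen after seeing the data, 19 genes were lower and 1 higher, with 14.0% of all genes called. Fitted on the PBS and acute 1 h libraries alone, 2 were lower and 1 higher, with 0.339% of all genes called. Same-numbered libraries of the PBS, acute 1 h and chronic 1 h groups deviated together, and fitted on these 3 groups, also chosen after seeing the data, 9 genes were lower and 1 higher without a replicate block and 19 and 1 with it, with 1.46% and 10.5% of all genes called.

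The genes called lower 1 h after acute dopamine overlapped between the doses. HK1, HK2, GPI, PFKP, ALDOA, ALDOC, TPI1, PGK1, PGAM1, ENO1, LDHA and PDK1 were called lower at both, 12 genes in all, which is 63.2% of the 1 mM list and 92.3% of the 1 µM list, and PDP1 was called higher at both. The share of all genes called at both doses was not counted, so this overlap cannot be set against it. SLC2A1, SLC2A3, PFKFB3, PFKFB4, PGM1, ENO2 and PDK3 were called lower at 1 mM and not at 1 µM, and PKM at 1 µM and not at 1 mM. A call at 1 dose alone does not show a difference, so the difference between the dose effects was tested directly, as the 1 mM effect minus the 1 µM effect in a fit of both experiments. It passed for 1 of the 37 genes against 2.01% of all 18390 genes tested in either direction. That gene was PKM, which encodes the pyruvate kinase that makes pyruvate. PKM read 520 to 682 TPM in PBS and 639 to 702 TPM at 1 h in the 1 mM experiment, and 371 to 502 TPM in PBS and 158 to 276 TPM at 1 h in the 1 µM experiment. The difference of the effects was 1.20 ± 0.21 on the log2 scale (edgeR adjusted p = 0.00176). For PFKFB3 it was -1.33 ± 0.39 and did not pass (edgeR adjusted p = 0.0776). When intron reads were counted too, the difference passed for 11 of the 37 genes, 10 of them with the higher value at 1 mM, and for 27.9% of all genes. Each dose was given in its own experiment, so dose and experiment cannot be told apart in any of these differences.

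**Figure D3:**
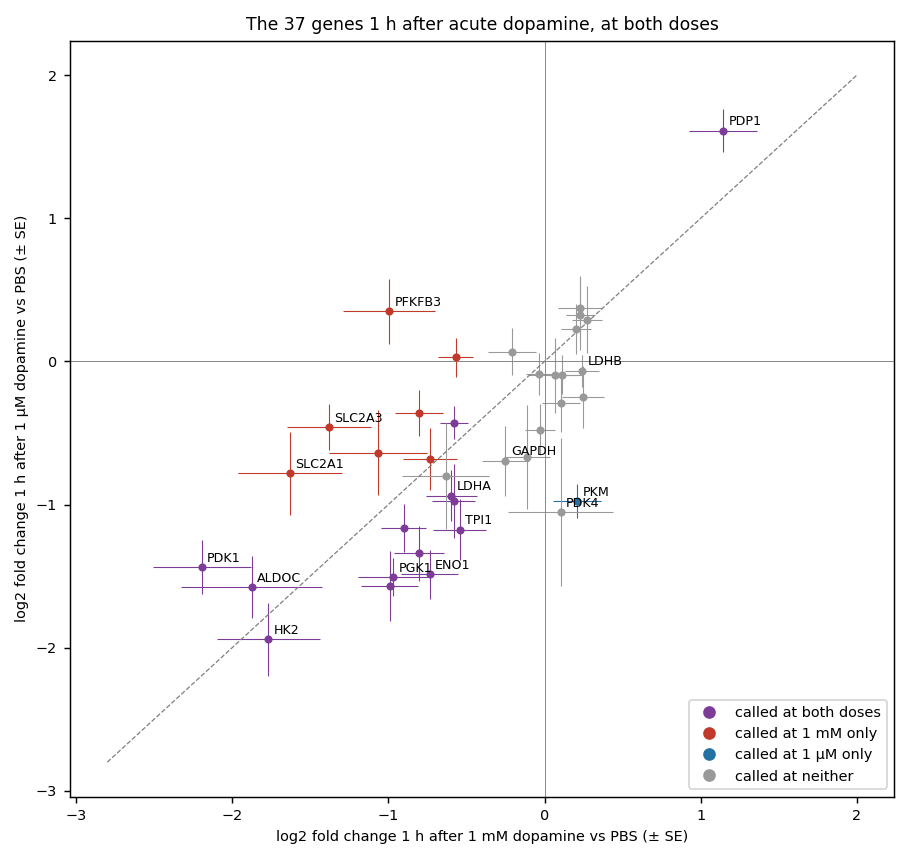
Log2 fold change of each of the 37 genes 1 h after acute dopamine against PBS at 1 mM (horizontal axis) and at 1 µM (vertical axis), with whiskers of 1 SE, a dashed line where both are equal, and colours for the dose at which a gene was called. PDP1 stands alone in the upper right at 1.14 and 1.61, HK2, ALDOC and PDK1 in the lower left, and PKM lies to the right of the line at 0.21 and -0.98.

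The starts of these genes were searched for the core letters of the hypoxia response element, the site to which HIF is known to bind. The letters searched were ACGTG and GCGTG on both strands, in the 250 bases before each start that RefSeq lists on GRCh38.p14. ACGTG on both strands also covers the E-box CACGTG, which other factors bind. RefSeq start windows were at hand for 33 of the 37 genes, all but SLC2A3, PFKFB2, PDP1 and SLC16A1. The letters were in 33 of the 61 windows of these genes (54.1%) and in 43.2% of all 35116 windows. By gene, 27 of 33 had a window with them (81.8%), against 47.4% of all 27305 genes with a window, and genes with several starts have more chances to hold them. Of the 12 genes lower at both doses, 11 had such a window, the exception being PGAM1, and so had 16 of the other 21.

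The windows of LDHA, PGK1 and ALDOC are shown as genes that fell at both doses and that of PDHB as one that was not called at either, with the core letters in capitals. They lie at chr11:18394313-18394562 on the plus strand, chrX:78103998-78104247 on the plus strand, chr17:28576896-28577145 on the minus strand and chr3:58433833-58434082 on the minus strand, and each is written 5′ to 3′ on the strand of its gene.
LDHA: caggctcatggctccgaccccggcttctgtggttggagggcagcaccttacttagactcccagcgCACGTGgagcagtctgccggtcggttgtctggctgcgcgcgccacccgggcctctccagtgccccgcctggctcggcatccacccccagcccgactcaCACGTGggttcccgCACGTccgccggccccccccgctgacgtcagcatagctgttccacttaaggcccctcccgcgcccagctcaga
PGK1: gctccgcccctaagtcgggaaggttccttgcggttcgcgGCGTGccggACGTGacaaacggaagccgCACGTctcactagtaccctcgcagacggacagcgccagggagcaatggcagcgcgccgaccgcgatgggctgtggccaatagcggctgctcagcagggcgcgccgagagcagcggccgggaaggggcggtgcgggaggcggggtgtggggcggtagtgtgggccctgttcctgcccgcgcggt
ALDOC: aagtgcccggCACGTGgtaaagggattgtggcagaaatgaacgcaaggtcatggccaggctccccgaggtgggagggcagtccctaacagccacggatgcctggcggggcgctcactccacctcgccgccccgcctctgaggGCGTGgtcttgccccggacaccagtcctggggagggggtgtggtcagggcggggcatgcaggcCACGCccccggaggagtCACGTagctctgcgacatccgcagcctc
PDHB: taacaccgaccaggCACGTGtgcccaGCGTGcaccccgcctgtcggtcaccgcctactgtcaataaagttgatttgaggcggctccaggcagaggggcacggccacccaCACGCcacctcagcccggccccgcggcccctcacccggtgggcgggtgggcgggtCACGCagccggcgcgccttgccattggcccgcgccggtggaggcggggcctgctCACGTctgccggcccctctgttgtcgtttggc
LDHA and PGK1 hold 3 separate stretches, ALDOC 4 and PDHB 5. Where a gene had several windows, the one with the most stretches is shown. PDHB, at log2 fold changes of 0.20 and 0.23, has the most stretches among the genes of this set that had a start window. PDK1, the gene that fell most 1 h after 1 mM, has at most 2. Whether the letters bear on the falls was not tested.

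At 24 h after the acute 1 mM dose, 22 of the 37 genes were lower than in PBS and none higher, against 7.09% of all genes lower and 8.38% higher. The median log2 fold change was -0.75 over the 37 genes and 0.02 over all genes. A fold of at least 2 was reached by 16 of the 22, and the share of all genes called lower at that fold was not counted. ALDOC read 16.3, 10.8 and 22.0 TPM against 115, 139 and 95.7 TPM in PBS, the largest fall of any of these genes in any comparison (-2.94 ± 0.47, edgeR adjusted p = 0.00337). SLC2A1 (-2.34), HK2 (-2.27) and PDK1 (-2.47) followed. PFKL, PFKM and GAPDH, not called at 1 h with all libraries fitted, were called lower with log2 fold changes of -0.52, -0.38 and -0.65. PDP1 was not called (0.49 ± 0.22, edgeR adjusted p = 0.126). It read 160 TPM in replicate 1, the library that stood apart, and 72.6 and 66.3 TPM in the others. Without replicate 1, 23 genes were lower, with 22.3% of all genes called, and the PDP1 log2 fold change was 0.07. Fitted on the PBS and acute 24 h libraries alone, none of the 37 passed and 0 of all genes did. Neuron markers moved with this group, with a summed TPM of 2002 to 3653 against 3926 to 4548 in PBS, and the intron share was 12.5% to 15.9% against 19.5% to 21.8%. Their part in the result was not tested.

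At 24 h after the acute 1 µM dose, 12 genes were lower and none higher, against 1.91% of all genes lower and 1.40% higher. The median log2 fold change was -0.44 over the 37 genes and 0.01 over all genes. ALDOC (-1.91 ± 0.22), HK2 (-1.78 ± 0.25), PDK1 (-1.50 ± 0.19) and PGK1 (-1.38 ± 0.13) fell furthest. LDHA was 31.3, 31.3 and 34.2 TPM against 63.5, 67.5 and 71.8 TPM in PBS, without overlap (-1.14 ± 0.18, edgeR adjusted p = 0.00355). PDP1, at up to 56.1 TPM, overlapped PBS (0.26, edgeR adjusted p = 0.392). With intron reads counted as well, 6 genes were lower, with 2.13% of all genes called, and without the libraries over 10% mitochondrial reads 18 were lower and 1 higher, with 10.2% called. Without acute 24 h replicate 3, 7 genes were lower. Choroid plexus markers had a summed TPM of 1559 to 2058 against 2105 to 2665 in PBS, astrocyte markers 159.9 to 160.4 against 126 to 145 and oligodendrocyte lineage markers 22.5 to 27.0 against 27.2 to 31.6. The intron share was 19.7% to 20.5% against 22.3% to 23.6%. Their part in the result was not tested.

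The 24 h and 1 h acute groups were also set against each other. At 1 mM, TPI1 (-0.72 ± 0.17, edgeR adjusted p = 0.0374) and LDHB (-0.45 ± 0.11, edgeR adjusted p = 0.0402) were lower at 24 h than at 1 h, 2 of the 37 genes against 3.49% of all genes in either direction. PDP1 did not pass (-0.66 ± 0.21, edgeR adjusted p = 0.0862). Without replicate 1 of the 24 h group it did (-1.05 ± 0.11, edgeR adjusted p = 2.16e-05), as 1 of 5 genes lower against 9.30% of all genes. None of the 37 passed with a replicate block, with only the groups compared, or without any 1 of 10 other libraries, among them each PBS and acute 1 h library. At 1 µM, PDP1 alone of the 37 passed, against 0.592% of all genes, and was lower at 24 h (-1.35 ± 0.15, edgeR adjusted p = 0.000277).

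**Figure D4:**
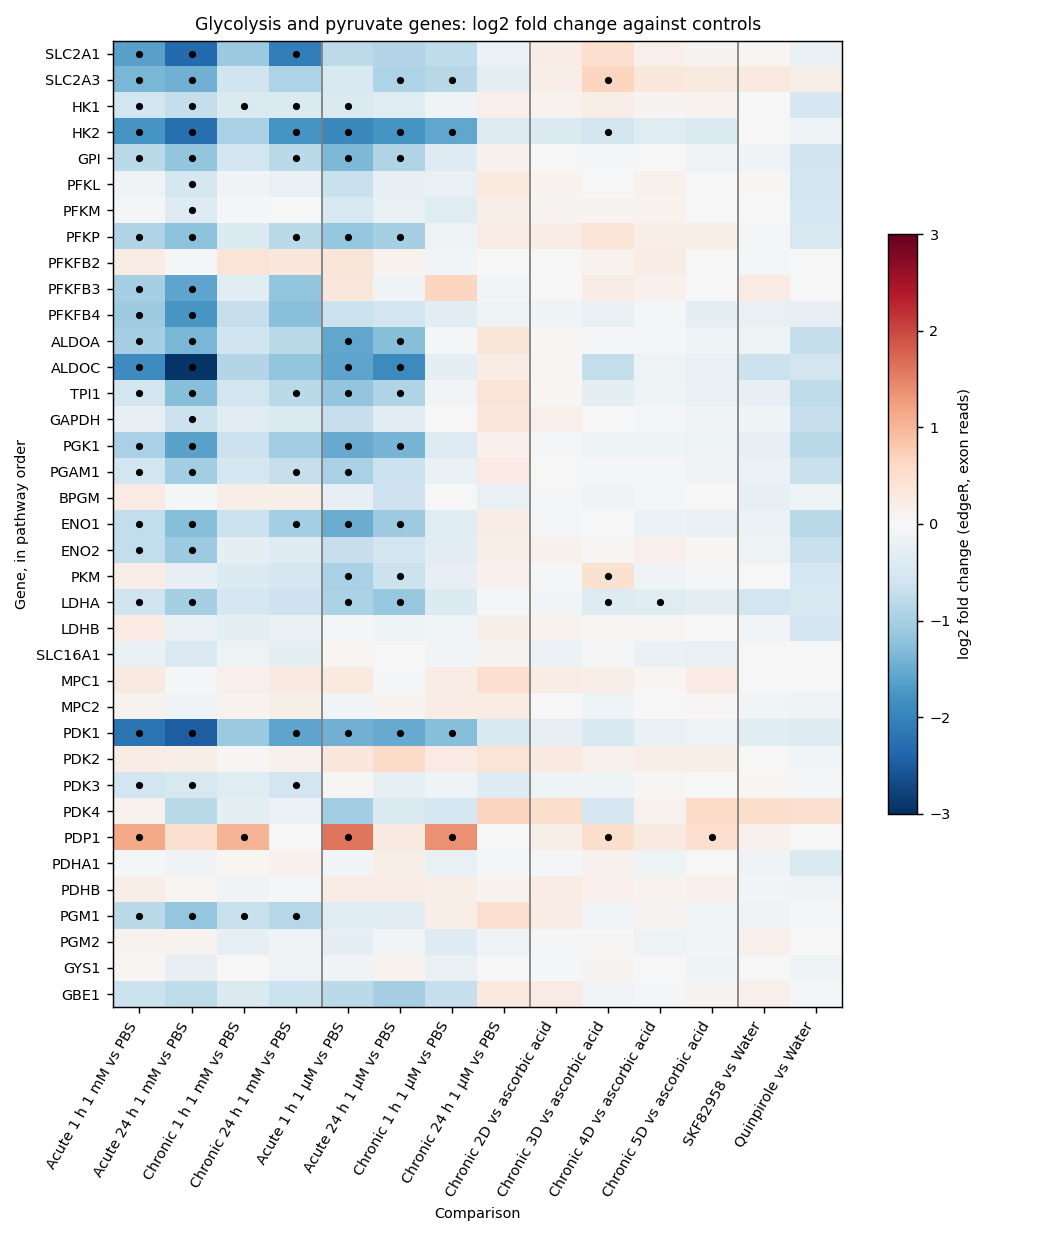
Log2 fold change (colour, blue lower and red higher, edgeR on exon reads) of each of the 37 genes (vertical axis, in pathway order) in the 14 comparisons with a control (horizontal axis), with a dot where the adjusted p was under 0.05. The dots lie mostly in the acute columns, with 19, 22, 13 and 12 genes lower, and among the comparisons with PBS the PDP1 line has a dot in the 4 columns at 1 h and none in the 4 at 24 h, while in the time course it has one after 3 and 5 days.

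After chronic dosing fewer of the genes passed in the main fit, and a smaller count does not by itself show a smaller change. At 1 h after the last 1 mM dose, HK1 (-0.43 ± 0.09, edgeR adjusted p = 0.0236) and PGM1 (-0.67 ± 0.15, edgeR adjusted p = 0.0413) were lower and PDP1 was higher (1.02 ± 0.22, edgeR adjusted p = 0.0292). Over all genes 0.814% were lower and 1.27% higher. The median over the 37 genes was -0.36 and 30 of the 37 log2 fold changes were below 0. PDK1, at 14.5, 13.1 and 20.9 TPM, lay below every PBS library but did not pass (-1.12 ± 0.30, edgeR adjusted p = 0.0748). Without the acute 24 h library that stood apart, 18 genes were lower and 2 higher, with 18.4% of all genes called in either direction, and none passed without PBS replicate 1 or 2 or without any chronic 1 h library. With only the groups compared fitted, or with DESeq2, more of the genes passed than in the main fit, as given at the end. Progenitor markers had a summed TPM of 2466 to 2645 against 2868 to 3370 in PBS, astrocyte markers 338 to 362 against 253 to 287 and oligodendrocyte lineage markers 136 to 142 against 86.8 to 101. Their part in the result was not tested.

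At 24 h after the last 1 mM dose, 11 genes were lower and none higher, against 0.545% of all genes lower and 0.118% higher, with a median of -0.50 over the 37 genes and 0.01 over all. They were SLC2A1, HK1, HK2, GPI, PFKP, TPI1, PGM1, PGAM1, ENO1, PDK1 and PDK3. SLC2A1 read 58.1, 42.7 and 38.5 TPM, below every PBS library (-2.09 ± 0.34, edgeR adjusted p = 0.0190), and ENO1, the widely expressed enolase, 559, 436 and 410 TPM against 817 to 1034 TPM (-1.03 ± 0.18, edgeR adjusted p = 0.0288). PDP1, at 58.6 to 71.4 TPM, overlapped PBS (-0.01). Without the library that stood apart, 23 genes were lower and 2 higher, with 8.48% of all genes called, and none passed without PBS replicate 1 or 2 or chronic 24 h replicate 1 or 3. Without any 1 of the acute 1 h replicates 2 and 3, the 3 chronic 1 h libraries and chronic 24 h replicate 2, 1 to 7 passed. Progenitor markers had a summed TPM of 2258 to 2353 against 2868 to 3370 in PBS, astrocyte markers 306 to 397 against 253 to 287 and oligodendrocyte lineage markers 111 to 144 against 86.8 to 101. Their part in the result was not tested.

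After chronic dosing with 1 µM, 4 of the genes passed at 1 h and none at 24 h. At 1 h after the last dose SLC2A3 (-0.82 ± 0.16, edgeR adjusted p = 0.0147), HK2 (-1.56 ± 0.25, edgeR adjusted p = 0.004) and PDK1 (-1.28 ± 0.18, edgeR adjusted p = 0.00245) were lower and PDP1 was higher, against 0.834% of all genes lower and 1.75% higher. PDP1 read 97.4, 97.6 and 105 TPM against 29.6 to 47.9 TPM in PBS (1.37 ± 0.15, edgeR adjusted p = 0.000236). Without the libraries over 10% mitochondrial reads, 7 genes were lower and 2 higher, with 9.86% of all genes called. Fitted on the PBS, acute 1 h and chronic 1 h groups alone, PDP1 was the 1 gene called without a replicate block, and with it 5 were lower and 2 higher, with 4.83% of all genes called. At 24 h none of the 37 passed in edgeR or DESeq2, and 0 of all genes were called lower or higher (0% each), with 608 genes at an unadjusted p under 0.05. The median over the 37 genes was 0.15. HK2 was at 19.6 to 27.5 TPM against 21.4 to 35.0 TPM in PBS, and PDP1 at 37.1 to 44.8 TPM. Choroid plexus markers had a summed TPM of 3116 to 3405 against 2105 to 2665.

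Set against the acute 1 h group directly, chronic 1 h dosing at 1 µM had 8 genes higher and none lower, against 1.20% of all genes in either direction. They were GPI, PFKP, ALDOA, ALDOC, TPI1, PGK1, ENO1 and PKM, all of them enzymes of the route from glucose 6-phosphate to pyruvate. ALDOA, the main aldolase, read 571, 307 and 708 TPM after chronic and 208, 96.7 and 266 TPM after acute dosing (1.51 ± 0.25, edgeR adjusted p = 0.00976). PGK1 read 163, 104 and 197 TPM against 72.5, 57.1 and 85.0 TPM (1.12 ± 0.13, edgeR adjusted p = 0.00167). HK2 (0.38), PDK1 (0.16) and PDP1 (-0.24) were not called. Without the libraries over 10% mitochondrial reads 12 genes were higher, with 6.39% of all genes called, and fitted on the groups compared alone none passed. Fitted with PBS as the only other group, none passed without a replicate block and 11 were higher with it, with 3.51% of all genes called. Without chronic 1 h replicate 3 or replicate 1, 3 and 4 genes passed. Choroid plexus markers had a summed TPM of 1759 to 2405 after chronic and 1146 to 1519 after acute dosing at 1 µM. Oligodendrocyte lineage markers had 23.1 to 28.4 and 30.4 to 33.0. Their part in the result was not tested. At 1 mM, PFKP (0.49 ± 0.15, edgeR adjusted p = 0.0445) and PDK1 (1.08 ± 0.31, edgeR adjusted p = 0.0377) were higher after chronic dosing, and PKM (-0.63 ± 0.16, edgeR adjusted p = 0.0213) and LDHB (-0.50 ± 0.11, edgeR adjusted p = 0.0102) were lower, 4 of 37 genes against 11.3% of all genes. Without the library that stood apart 6 genes were higher and 4 lower, with 34.0% of all genes called, while none passed without acute 1 h replicate 3, 2 without acute 1 h replicate 2 and 1 without any chronic 1 h library. Chronic against acute at 1 mM, neuron markers had a summed TPM of 3936 to 4159 against 3555 to 3909. Striatal markers had 145 to 156 against 140 to 144 and progenitor markers 2466 to 2645 against 3021 to 3309. Astrocyte markers had 338 to 362 against 410 to 469 and oligodendrocyte lineage markers 136 to 142 against 98.1 to 112. The intron share was 20.6% to 20.9% against 12.3% to 13.2%, and the part of these was not tested. The acute and chronic groups were taken at day 45 and day 50, so the day and the number of doses cannot be told apart.

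Isoenzyme make-up moved within families as well as in total. PDK1 was 40.7% ± 5.05 (SD, n = 3) of the PDK transcripts by TPM in the PBS libraries of the 1 mM experiment, 13.7% ± 4.58 at 1 h and 12.0% ± 2.10 at 24 h after the acute dose, and PDK2 went from 30.3% ± 4.85 to 54.2% ± 5.15 at 1 h. At 1 µM the PDK1 share went from 22.3% ± 4.63 in PBS to 8.88% ± 1.78 at 1 h. PFKP was 40.5% ± 2.27 of the phosphofructokinase transcripts in PBS of the 1 mM experiment and 27.5% ± 2.54 at acute 1 h, and 37.5% ± 2.91 and 28.6% ± 3.22 at 1 µM. PFKFB3 was 65.6% ± 0.686 and 59.7% ± 2.98 of its family in those groups at 1 mM, and 45.6% ± 0.791 and 52.8% ± 5.65 at 1 µM. The ranges of PDK1, PFKP and HK2 shares in the acute 1 h groups did not overlap those of their PBS groups at either dose. These shares were not tested, since 3 against 3 libraries cannot go below p = 0.1 in an exact permutation test. They also depend on the reads used. With uniquely mapped reads, 230 of the 432 shares over all families and groups moved by over 1 SD. For PDK2, 58.1% to 77.7% of exon reads mapped to 1 place in the 52 libraries.

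**Figure D5:**
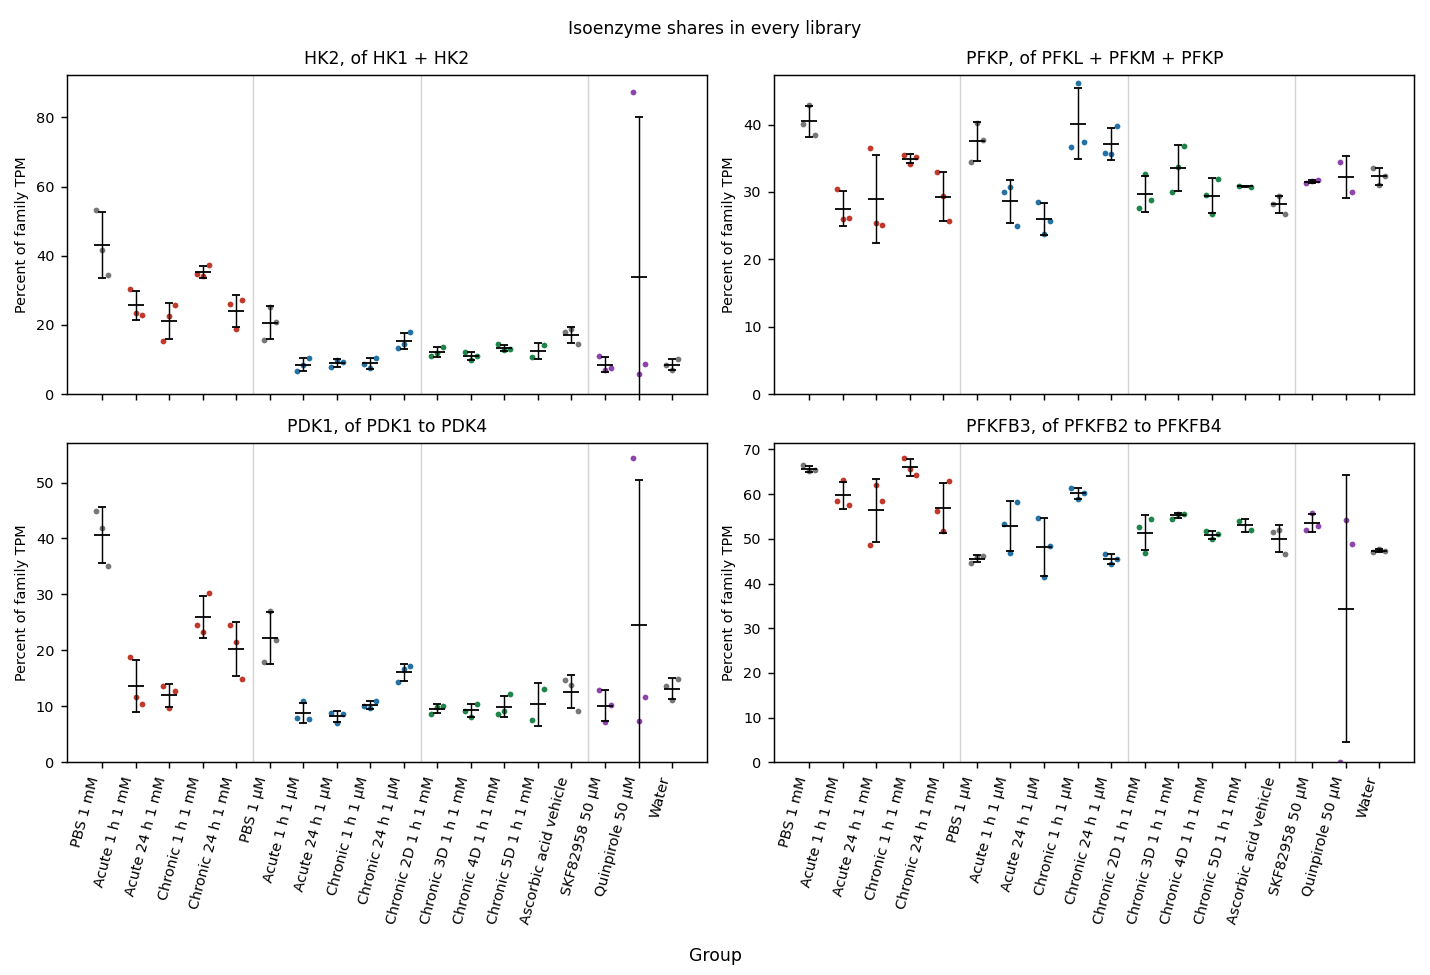
Share of a family's TPM in percent (vertical axis) held by HK2, PFKP, PDK1 and PFKFB3 in every library by group (horizontal axis), with each point a library, the horizontal dash the group mean and the whisker 1 SD (grey controls, red 1 mM, blue 1 µM, green time course, purple agonists). Apart from quinpirole replicate 1, which widens the whisker of its group, the PDK1 share is highest in the PBS libraries of the 1 mM experiment, at a mean of 40.7%.

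In the time course, where the control held the same ascorbic acid, few of the genes passed. After 2 days of dosing none of the 37 passed, after 3 days 5 did, after 4 days 1 and after 5 days 1, against 3.88%, 7.37%, 4.38% and 1.63% of all 16768 genes tested in either direction. DESeq2 called 1 gene, lower, after 2 days. The medians over the 37 genes were 0.02, -0.00, -0.02 and -0.01. After 3 days SLC2A3 (0.65 ± 0.15, edgeR adjusted p = 0.0166), PKM (0.45 ± 0.10, edgeR adjusted p = 0.0150) and PDP1 (0.52 ± 0.10, edgeR adjusted p = 0.00728) were higher, and HK2 (-0.56 ± 0.13, edgeR adjusted p = 0.0166) and LDHA (-0.38 ± 0.09, edgeR adjusted p = 0.0203) were lower. Without replicate 2 of the 3 day group, or replicate 1 or 2 of the vehicle, PDP1 was the 1 call left in each case, and without replicate 3 of the 3 day group 3 were left. After 3 days choroid plexus markers had a summed TPM of 485 to 1058 against 1491 to 2339 in the vehicle. Mesenchymal markers had 272 to 467 against 182 to 239, and astrocyte markers 335 to 363 against 260 to 306. Oligodendrocyte lineage markers had 81.5 to 95.2 against 64.5 to 71.1. Some marker sums lay apart from the vehicle on each other day too. The part of these markers in the results was not tested.

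HK2 read 24.3, 26.2 and 17.9 TPM in the vehicle libraries and 16.0, 12.5 and 14.8 TPM after 3 days, and LDHA 32.4, 33.1 and 29.5 TPM and 25.3, 18.8 and 24.0 TPM, both without overlap. LDHA was also lower after 4 days (-0.36 ± 0.09, edgeR adjusted p = 0.0425), a call lost with a replicate block, with total or uniquely mapped gene reads and without any 1 of the 6 libraries compared. PDP1 read 42.4, 44.0 and 45.3 TPM in the vehicle libraries, 44.1, 44.5 and 46.8 TPM after 2 days, 52.6, 54.1 and 70.4 TPM after 3 days, 55.7, 45.7 and 53.9 TPM after 4 days and 46.5 and 68.2 TPM after 5 days. It was called after 3 and 5 days (0.50 ± 0.12 after 5 days, edgeR adjusted p = 0.0405). For PDP1 the call after 5 days was lost without either library of that group, at 0.55 (edgeR adjusted p = 0.0675) without replicate 2, which had over 10% mitochondrial reads, and 0.41 (edgeR adjusted p = 0.121) without replicate 3. PGK1 (-0.03 to -0.15) and PDK1 (-0.14 to -0.47) were called on none of the 4 days.

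None of the 37 genes passed for either agonist. For 50 µM SKF82958, 0 of 37 passed against 0.0124% of all 16132 genes tested, and for 50 µM quinpirole 0 of 37 against 0% of all genes, with 350 genes at an unadjusted p under 0.05. DESeq2 also called 0 of the 37 for both. PDP1 read 49.3, 48.1 and 48.0 TPM with SKF82958, 38.3, 43.3 and 44.0 TPM with water and, in the deeper quinpirole replicates 2 and 3, 34.1 and 51.1 TPM. The quinpirole median of -0.24 over the 37 genes rested on its replicate 1, and without it the medians were -0.07 for quinpirole and -0.05 for SKF82958, with 0 of the 37 called for either.

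The neighbours of the route in metabolism were listed alongside. Of 70 other pathway genes, such as further isoforms and regulators, 51 were tested in the 1 mM experiment, and 2 were higher and 4 lower at acute 1 h. Of 14 pentose phosphate genes, 13 were tested, with 3 higher and 1 lower, and of 24 tricarboxylic acid cycle genes, 22 were tested, with 2 higher and 1 lower. Their medians were 0.07, 0.20 and -0.01. Over all genes tested there, 8.04% were higher and 7.94% lower. At acute 1 h of the 1 µM experiment the 3 lists had 1 gene higher and 1 lower, none and none. The shares of all genes were 3.25% higher and 2.52% lower.

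Known HIF target genes outside glycolysis were listed as well. Of 34 such genes, all tested in both dopamine experiments, 24 were lower and 0 higher at acute 1 h and 25 and 0 at acute 24 h with 1 mM, and 12 and 0, then 15 and 0, with 1 µM. Of all genes tested, 7.94% and 7.09% were lower at 1 mM, and 2.52% and 1.91% at 1 µM. The medians over the 34 genes were -0.92 and -0.97 at 1 mM and -0.55 and -0.87 at 1 µM. Among them VEGFA, the vascular growth factor, fell by 2.67 at 1 mM and 1.20 at 1 µM on the log2 scale at acute 1 h, and BNIP3, a mitophagy receptor, by 1.86 and 1.71. After chronic dosing 6 and 12 were lower at 1 h and 24 h with 1 mM, and 5 and 0 with 1 µM. The shares of all genes lower were 0.814% and 0.545% with 1 mM, and 0.834% and 0% with 1 µM. In the time course 1, 4, 1 and 1 were higher and 1, 5, 1 and 0 lower over the 4 days. Of all genes, 3.88%, 7.37%, 4.38% and 1.63% were called there in either direction. This list was written with earlier results of these data known, and its direction is given as a description.

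Of the 37 genes, 24 were called in at least 1 of the 8 comparisons of dopamine with PBS. The share of all genes called in at least 1 of the 8 was not counted, so the 24 cannot be set against it. The 13 called in none of them in the main fit were PFKFB2, PGM2, BPGM, LDHB, PDK2, PDK4, PDHA1, PDHB, GYS1, GBE1, MPC1, MPC2 and SLC16A1. They hold both subunits of the pyruvate dehydrogenase complex listed here, both mitochondrial pyruvate carriers, the lactate transporter, and glycogen synthase (GYS1) with the branching enzyme (GBE1). Some of the 13 were called at 1 mM without the acute 24 h library that stood apart. PFKFB2 and MPC1 were then higher, and PDK4 and SLC16A1 lower, in at least 1 comparison with PBS. LDHB was then higher at acute 1 h and lower at chronic 1 h and 24 h. The shares of all genes called in those fits stand with each comparison above. For GBE1 the log2 fold change against PBS lay between -0.99 and -0.42 in every dopamine group except chronic 24 h at 1 µM, where it was 0.30. PDK4 was measured on few reads, with as little as 2 exon reads in 1 acute 1 h library at 1 µM, and a change in it was hard to detect at this depth.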

How the data were processed

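RNA-seq of H9-derived cells was read from 53 tables, 1 library each. The authors mapped and counted reads in CLC Genomics Workbench on a human Ensembl annotation (build hg38 in the submitters' processing notes) and deposited counts of total exon, gene, intron and uniquely mapped reads and TPM, which is scaled per exon length and library. Strand use and which of 2 sequencing providers ran a library are not given in the sources used here. Total exon reads were tested with edgeR 4.0.16 (R 4.3.3): filterByExpr with a minimum count of 10 and total of 15, TMM, and a quasi-likelihood fit of all groups of an experiment, with Benjamini-Hochberg adjustment over all genes and a call under 0.05. DESeq2 1.42.0 was an alternative. SEs are the log2 fold change over the root of F. TPM is descriptive. The members and lists were chosen with earlier results of these data known, and all 37 members may be named, with up to 4 genes of other lists by smallest p. The methods call the replicates independent. Same-numbered libraries were paired only by the data, and only among PBS, acute 1 h and chronic 1 h at 1 µM, where all 9 correlations of their deviations from the group means were 0.1195 to 0.4461. In data simulated for the acute 1 h comparison, edgeR found 71 of 100 genes changed 2-fold at 1 mM (17804 genes) and 37 of 100 at 1 µM (16541 genes), and 87 and 78 of 100 changed 4-fold. Alternatives were other read types, normalization, no filter, fewer groups, a replicate block and each library left out. No 2 libraries held identical counts.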

Additional observations from a re-analysis of the deposited data

Results flagged for a closer look

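PKM had a dose difference that passed its own test, though dose and experiment cannot be told apart in it. Its log2 fold change 1 h after acute 1 mM dopamine minus that 1 h after 1 µM was 1.2 (SE 0.21, edgeR adjusted p = 0.00176), with effects of 0.21 ± 0.16 at 1 mM and -0.98 ± 0.12 at 1 µM, each against its own PBS libraries. No group had 4 or more libraries, so no search for single libraries far from their group was made.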

How the results depend on the processing

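No value for any of the 37 genes that was called changed sign under any alternative, and 302 of 415 alternative counts of called genes lay within 1.5 times the count reported. The others follow, with the cause not tested. Counts here and in the paragraphs below are given without the share of all genes called in the same fit. That share moved between fits too, as the shares given with the comparisons above show. A changed count here therefore cannot be read as particular to the 37 genes. Fitted on the compared groups alone, the counts went from 22 to 0 at acute 24 h 1 mM, 3 to 23 at chronic 1 h 1 mM, 14 to 3 at acute 1 h 1 µM, 4 to 1 at chronic 1 h 1 µM, 1 to 5 after 4 days, 1 to 0 after 5 days, 4 to 14 and 8 to 0 for chronic against acute at 1 mM and 1 µM, and 2 to 0 for 24 h against 1 h at 1 mM. With DESeq2's Wald test they were 12 and 17 at chronic 1 h and 24 h 1 mM, 1 after 2 days, 7 for chronic against acute and 8 for 24 h against 1 h at 1 mM, and 3 for the dose difference. With total gene reads they were 5 at chronic 24 h 1 mM, 6 at acute 24 h 1 µM, 0 after 4 and 5 days, 12 for chronic against acute at 1 mM and 11 for the dose difference. With uniquely mapped reads they were 7 at acute 24 h 1 µM, 0 after 4 and 5 days, 11 and 5 for chronic against acute at 1 mM and 1 µM, 4 for 24 h against 1 h at 1 mM and 12 for the dose difference, and 230 of 432 isoenzyme shares moved by over 1 SD. Without a filter on low counts they were 1, 10, 3 and 2 after 2, 3, 4 and 5 days, 1 for 24 h against 1 h at 1 mM and 2 for the dose difference. Without libraries over 10% mitochondrial reads, chosen after seeing the data, they were 19 and 9 at acute 24 h and chronic 1 h 1 µM, 1 and 0 after 2 and 5 days, and 3 for 24 h against 1 h at 1 µM.

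With a replicate block over all groups of an experiment the count was 5 at chronic 24 h 1 mM, 0 after 4 days and 0 for 24 h against 1 h at 1 mM, and within 1.5 times elsewhere. In the PBS, acute 1 h and chronic 1 h groups at 1 µM, chosen after seeing the data, the count went with the block from 10 to 20 at acute 1 h, from 1 to 7 at chronic 1 h and from 0 to 11 for chronic against acute. In the other comparisons the samples share only a number: not every same-numbered pair of the groups compared was over 0.1, and the mean r was 0.00196 at 1 mM, -0.0103 in the time course and -0.0249 in the agonist experiment.

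Leaving out 1 library at a time gave 11 (without acute 1 h replicate 2) to 25 genes (without acute 24 h replicate 1) at acute 1 h 1 mM, 18 to 25 at acute 24 h 1 mM, 0 (without PBS replicate 1 or 2 or any chronic 1 h library) to 20 at chronic 1 h and 0 to 25 at chronic 24 h 1 mM. It gave 12 to 14, 7 (without acute 24 h replicate 3) to 13, 3 to 4 and 0 to 0 in the same order at 1 µM, 0 to 1, 1 to 7, 0 to 1 and 0 to 1 after 2 to 5 days, and 0 to 0 for both agonists. For chronic against acute it gave 0 (without acute 1 h replicate 3) to 10 at 1 mM and 3 to 9 at 1 µM, for 24 h against 1 h 0 to 7 and 1 to 1, and for the dose difference 1 to 2.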
